A study of Drosophila melanogaster with 2 samples.

Results

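Odorant binding proteins are small secreted proteins that carry hydrophobic ligands such as odors and pheromones through the fluid around olfactory and gustatory neurons. They are known best from the antenna, but members of the family are also made in glia, fat body, gut and glands of the reproductive tract, where several are thought to bind lipids or other small molecules. The members described here are the 51 genes whose symbol starts with *Obp* and a number, out of 13942 genes counted. *lush*, a member of the same protein family that the symbol leaves out, is given with the other odor genes below. Of the 51 genes, 29 lie on chromosome arm 2R, 12 on 3R, 6 on X, 2 on 2L and 2 on 3L.

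The counts come from single-cell RNA sequencing of whole ovaries of *w1118(x);;* female flies, a white-eyed laboratory strain with no other allele or transgene named, dissected at 6 weeks or at 1 week after eclosion. Flies of both sexes were collected and kept in vials until then. By the methods of the study, females were collected as virgins and then paired with males. Ovaries were not enriched for their anterior part. The labels give 1 library for each age, made with a 10x Genomics 3′ kit, so no test between the ages was possible, and effects of age and of any other difference between the libraries cannot be told apart. The methods of the study name more than 1 version of the kit, and its legends mention replicates, but the cells of these libraries could not be assigned to either. Each captured molecule carries a unique molecular identifier (UMI), and levels are given as CPM, the UMIs of a gene per 1000000 UMIs of the same cells. The library holds 3′ ends, so a UMI stands for a transcript whatever its length. Ratios are given on the log2 scale as 6 weeks over 1 week with 95% intervals, which cover counting error only and are too narrow for a comparison of flies.

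The filter on genes, UMIs and mitochondrial share kept 9878 of 20224 barcodes at 6 weeks and 9131 of 33317 at 1 week, with medians of 12585.5 and 10639 UMIs. The median mitochondrial share was 4.42% of the UMIs of a kept cell at 6 weeks and 6.18% at 1 week, and 26 kept barcodes occurred in both libraries. Cells fell into 26 clusters, and the follicle lineage, the epithelium that surrounds each germline cyst and grows from follicle stem cells (FSCs) through prefollicle cells (pFCs) to the cells that secrete the eggshell, took 13 of them. These follicle-lineage-like clusters held 7525 cells at 6 weeks (76.2%) and 6966 at 1 week (76.3%). Clusters carry a class name with "-like" from marker genes and are told apart by their leading genes. A total of 3 clusters, led by *CG15721* and *Nox*, by *vir-1* and *abd-A*, and by *CG5070* and *IM33*, were left unnamed. The *vir-1* cluster carried the mature follicle cell markers *Nox*, *Mmp2* and *Oamb* but is counted outside the follicle lineage here. The *CG5070* cluster carried the trachea markers *btl*, *verm* and *serp*. Cluster names were rebuilt here and may differ from those of the study.

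Transcripts of the family came almost wholly from follicle-lineage-like cells. Obp UMIs numbered 43181 at 6 weeks (292 CPM) and 32920 at 1 week (277 CPM), of which follicle-lineage-like cells held 96.9% (exact binomial interval 96.8 to 97.1) and 95.2% (94.9 to 95.4). Their level in these cells was 332 CPM at 6 weeks and 317 CPM at 1 week, against 61.1 and 80.4 CPM in all other cells. *Obp99a* made up 57.3% of the Obp UMIs at 6 weeks and 51.2% at 1 week, and *Obp44a* 39.0% and 37.8%. The pair thus accounted for 96.3% of the family's UMIs at 6 weeks and 89.0% at 1 week.

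Outside this pair most members were near the detection limit. In the kept cells 40 of the 51 genes had at least 1 UMI at either age, 32 of them at 6 weeks and 38 at 1 week. The other 11 had none, and 8 of those had none in any barcode. A count of 0 has an exact upper limit of 0.025 CPM over all cells at 6 weeks and 0.0311 CPM at 1 week. A total of 28 members had 1 to 29 UMIs over both libraries, together 122 at 6 weeks and 108 at 1 week. The 12 genes of at least 30 UMIs are shown by cluster in the heat map of CPM, and 7 of them had at least 200.

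**Figure D1:**
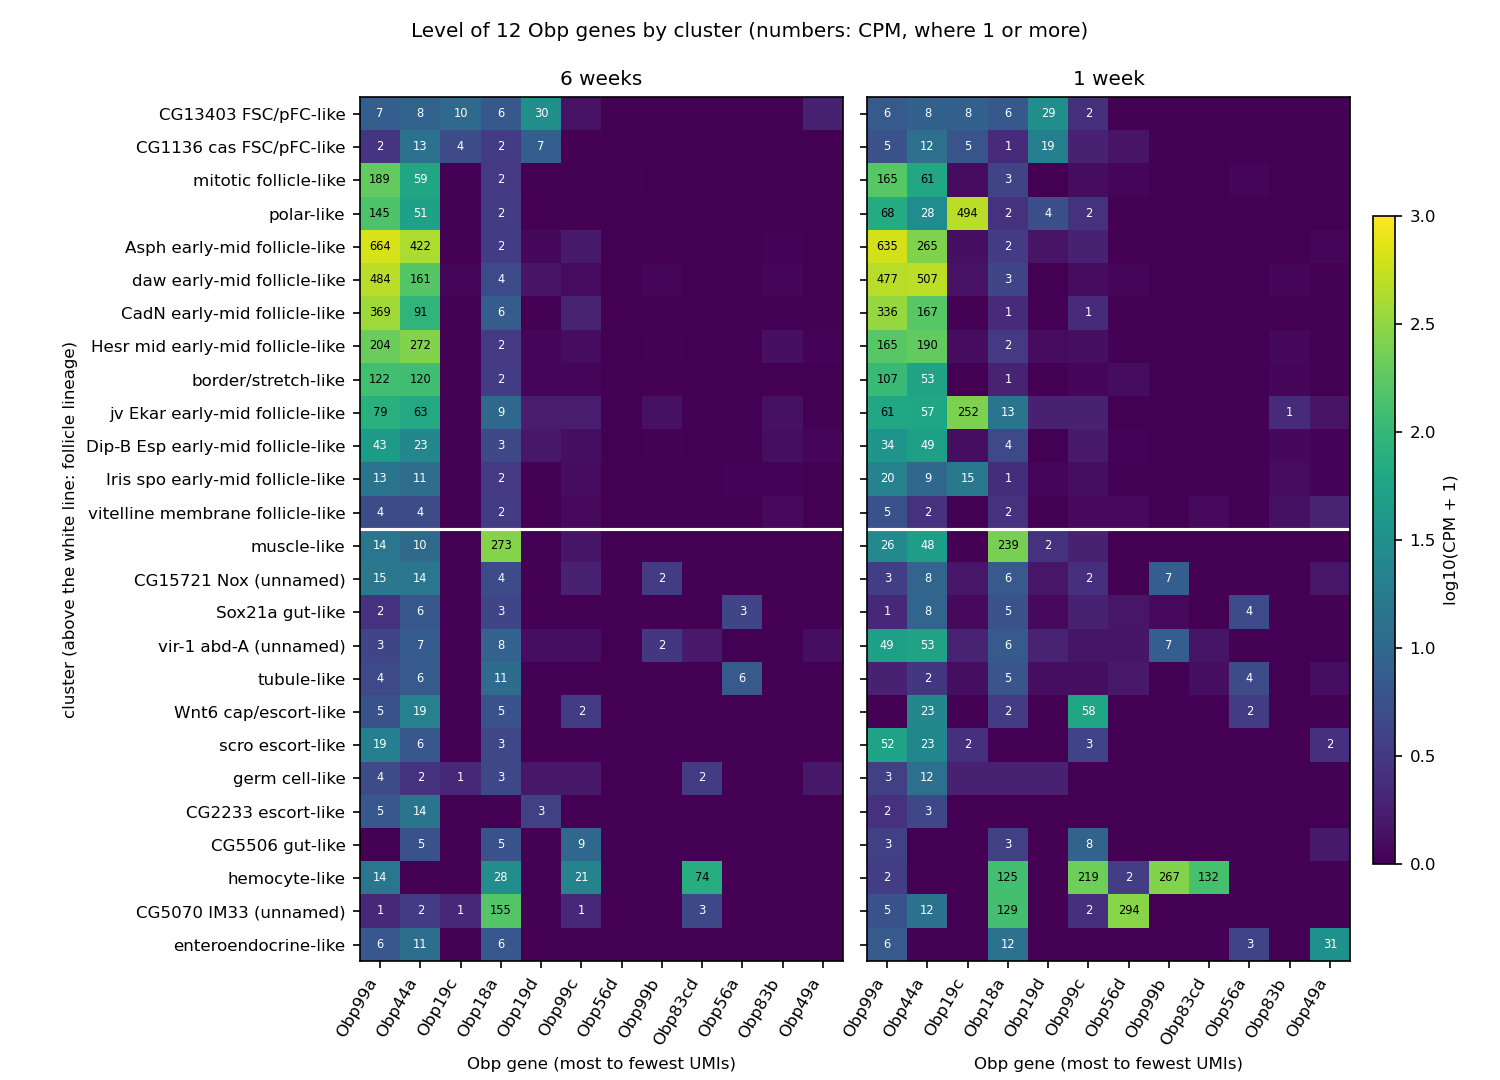
Level of the 12 Obp genes of at least 30 UMIs in each of the 26 clusters, at 6 weeks (left) and 1 week (right), with color as log10(CPM + 1) and CPM of 1 or more printed. *Obp99a* and *Obp44a* are highest in follicle-lineage-like clusters (above the white line), *Obp18a* in muscle-like cells and *Obp83cd* in hemocyte-like cells, where *Obp99b* (267 CPM) is read at 1 week and not at 6 weeks.

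*Obp99a* lies on 3R at 29671657 to 29672334, on the plus strand, with 3 annotated exons in release 6.54 of the BDGP genome. It was read in 3037 of 9878 cells at 6 weeks (30.7%) and in 2604 of 9131 cells at 1 week (28.5%), and follicle-lineage-like cells held 99.3% and 98.9% of its 24756 and 16847 UMIs. Its level was highest in an early-mid follicle-like cluster led by *Asph*, an aspartyl hydroxylase gene, at 664 CPM at 6 weeks (649 to 678) and 635 CPM at 1 week (619 to 652). A UMI of the gene was seen in 84.8% of the 783 *Asph* cells at 6 weeks and 82.9% of the 715 at 1 week, with medians of 5 and 4 UMIs per cell. The order of the 5 highest clusters was the same at both ages.

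Below the *Asph* cells came an early-mid follicle-like cluster led by *daw*, a gene for a TGF-beta family ligand, with 484 CPM of *Obp99a* at 6 weeks and 477 at 1 week. A small cluster led by *CadN*, the N-cadherin gene, followed with 369 and 336 CPM. The cluster led by *Hesr* and *mid* had 204 and 165 CPM, mitotic follicle-like cells 189 and 165 CPM, and border/stretch-like cells 122 and 107 CPM. At 1 week the intervals of the *Hesr* cells (159.8 to 171) and the mitotic cells (157 to 172) overlapped. The *CadN* cluster and the *jv* cluster below it had the highest mitochondrial shares of the follicle clusters, with medians of 14.4% and 13.2% at 6 weeks and 15.3% and 14.7% at 1 week.

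At either end of the follicle lineage *Obp99a* was low. The 2 FSC/pFC-like clusters, led by *CG13403* and by *CG1136* and *cas*, had 6.90 and 1.88 CPM at 6 weeks and 6.13 and 4.52 CPM at 1 week, and vitelline membrane follicle-like cells, which secrete the inner eggshell, had 3.95 and 4.63 CPM. The cluster led by *Iris* and by *spo*, a gene of ecdysone synthesis, had 13.4 and 20.2 CPM. Germ cell-like cells, for which no expression of the gene was assumed, had 4.04 CPM at 6 weeks on 7 UMIs and 2.66 CPM at 1 week on 3 UMIs, so levels of a few CPM in other clusters are not read as expression. Free RNA was not measured.

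*Obp44a* lies on 2R at 8134170 to 8135315, on the minus strand, with 4 annotated exons that overlap exons of *Pabp2* on the other strand. How reads of overlapping genes were assigned is not given in the sources used here. The gene is known from glia of the fly brain, where its protein binds fatty acids. It was read in 24.2% of the cells at 6 weeks and 21.1% at 1 week, and follicle-lineage-like cells held 98.9% and 97.8% of its 16819 and 12453 UMIs. At 6 weeks its level was highest in *Asph* cells at 422 CPM (410 to 433), then in *Hesr* cells at 272 (265 to 278) and *daw* cells at 161 (153 to 169). At 1 week *daw* cells were first with 507 CPM (491 to 523), then *Asph* cells with 265 (255 to 276) and *Hesr* cells with 190 (184 to 197).

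Other follicle-lineage-like clusters had less *Obp44a*. Border/stretch-like cells, which include the cells that migrate toward the oocyte, had 119.5 CPM at 6 weeks and 52.8 at 1 week, *CadN* cells 91.4 and 167 CPM, and mitotic follicle-like cells 59.0 and 60.9 CPM. The cluster led by *Dip-B* and *Esp* had 23.3 and 49.1 CPM. FSC/pFC-like cells led by *CG13403* had 8.12 and 7.66 CPM, and vitelline membrane follicle-like cells 3.95 and 1.67 CPM. In germ cell-like cells the gene had 1.73 CPM at 6 weeks on 3 UMIs and 11.5 CPM at 1 week on 13 UMIs, 12 of which came from 1 cell.

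**Figure D2:**
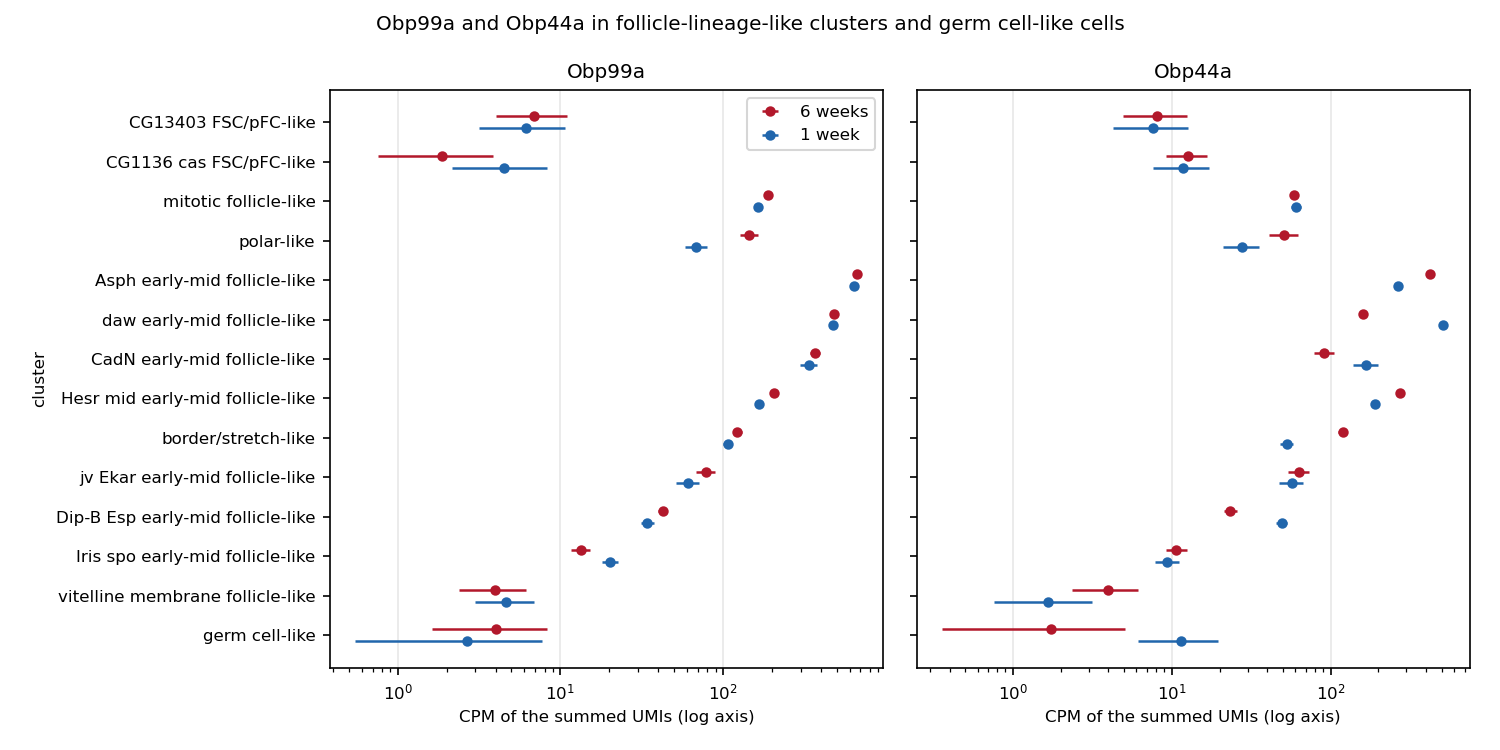
CPM of *Obp99a* (left) and *Obp44a* (right) in the 13 follicle-lineage-like clusters and in germ cell-like cells, on a log axis, with 6 weeks in red above 1 week in blue and exact Poisson 95% intervals (counting error only) as bars. *Obp99a* is at 664 and 635 CPM in *Asph* cells, and *Obp44a* is at 161 CPM at 6 weeks and 507 CPM at 1 week in *daw* cells.

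The pair was found in much the same places. Clusters led by *Asph*, *daw* and *Hesr* and the mitotic follicle-like cells held 35.9% of the cells at 6 weeks and 35.7% at 1 week, but 86.1% and 85.7% of the *Obp99a* UMIs and 86.4% and 84.9% of the *Obp44a* UMIs. Over the 26 clusters, Pearson's r between the log levels of the 2 genes was 0.92 at 6 weeks and 0.92 at 1 week, and over the 13 follicle-lineage-like clusters it was 0.92 and 0.94. The clusters of an age share 1 library and differ in depth, so r is a description. Both genes were read in 1453 of 7525 follicle-lineage-like cells at 6 weeks (19.3%) and in 1141 of 6966 at 1 week (16.4%). Of the cells with *Obp44a*, 63.1% and 61.7% also had *Obp99a*, and of the cells with *Obp99a*, 49.1% and 44.7% also had *Obp44a*.

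Genes whose 1-week levels over the 26 clusters were most like those of *Obp99a*, among 7628 genes compared, were *Ptr* (r = 0.93), *Obp44a* (0.92), *GstE14* (0.88), *CG17127* (0.85) and *gcm* (0.83). *Ptr* encodes a Patched-related protein, *GstE14* a glutathione transferase needed for ecdysone synthesis, and *gcm* a transcription factor known from glia and blood cells. With 6-week levels the r of these genes with *Obp99a* was 0.89 for *Ptr*, 0.88 for *GstE14*, 0.94 for *CG17127* and 0.84 for *gcm*. For *Obp44a* the 5 were *Obp99a* (0.92), *Ptr* (0.90), *GstE14* (0.88), *Asph* (0.86) and *gcm* (0.85), with 0.92, 0.84, 0.92, 0.79 and 0.85 at 6 weeks. *Asph* also led the cluster in which *Obp99a* was highest, and these r values were picked as the highest at 1 week.

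Summed over all cells, both genes were slightly higher at 6 weeks. *Obp99a* had 168 CPM at 6 weeks and 142 CPM at 1 week (log2 ratio 0.24, 0.21 to 0.27), and *Obp44a* had 114 and 105 CPM (0.12, 0.085 to 0.15). The mix of clusters differed between the libraries, with the *CadN* cluster at 4.75% of the cells at 6 weeks and 1.81% at 1 week. With the cluster mix held at that of the 1-week library, an alternative added once values were known, the log2 ratios were 0.13 for *Obp99a* and 0.052 for *Obp44a*.

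Within clusters taken whole, *Obp99a* differed little in the cells where it was high. Its log2 ratio was 0.063 in *Asph* cells (0.014 to 0.11), 0.021 in *daw* cells (-0.042 to 0.085) and 0.14 in *CadN* cells (-0.074 to 0.35). It was 0.31 in *Hesr* cells (0.24 to 0.37), 0.31 in *Dip-B* cells (0.15 to 0.48) and 0.20 in mitotic follicle-like cells (0.12 to 0.28), and -0.59 in *Iris* cells (-0.85 to -0.34). The small values in *Asph* and *daw* cells turned sign in 2 and 3 of 12 alternatives, to -0.024 and -0.12 at the lowest. Those in *Dip-B* and *Iris* cells were not stable and moved further. In *Dip-B* cells the ratio was -1.30 with both libraries clustered together, -0.63 with cells thinned to 1000 UMIs and 0.029 as a mean of the CPM of each cell. In *Iris* cells it was 0.28 at Leiden resolution 0.5 and -2.13 with thinned cells. Groups within the *daw* cluster at a finer clustering, given below, differed in *Obp99a* in opposite directions.

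*Obp44a* differed in opposite directions between clusters of the same lineage. It was lower at 6 weeks in *daw* cells, by a log2 ratio of -1.66 (-1.74 to -1.57), in *Dip-B* cells (-1.07, -1.25 to -0.90) and in *CadN* cells (-0.87, -1.20 to -0.53). It was higher at 6 weeks in border/stretch-like cells (1.18, 1.01 to 1.35), in *Asph* cells (0.67, 0.60 to 0.74) and in *Hesr* cells (0.51, 0.45 to 0.57). In mitotic follicle-like cells the interval held 0 (-0.046, -0.18 to 0.093). The difference between clusters was not tested. Among all genes of at least 30 UMIs in the same cluster, 1.62% were at least 2-fold lower at 6 weeks in *daw* cells, 1.44% at least 2-fold lower in *Dip-B* cells and 1.04% at least 2-fold higher in border/stretch-like cells.

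**Figure D3:**
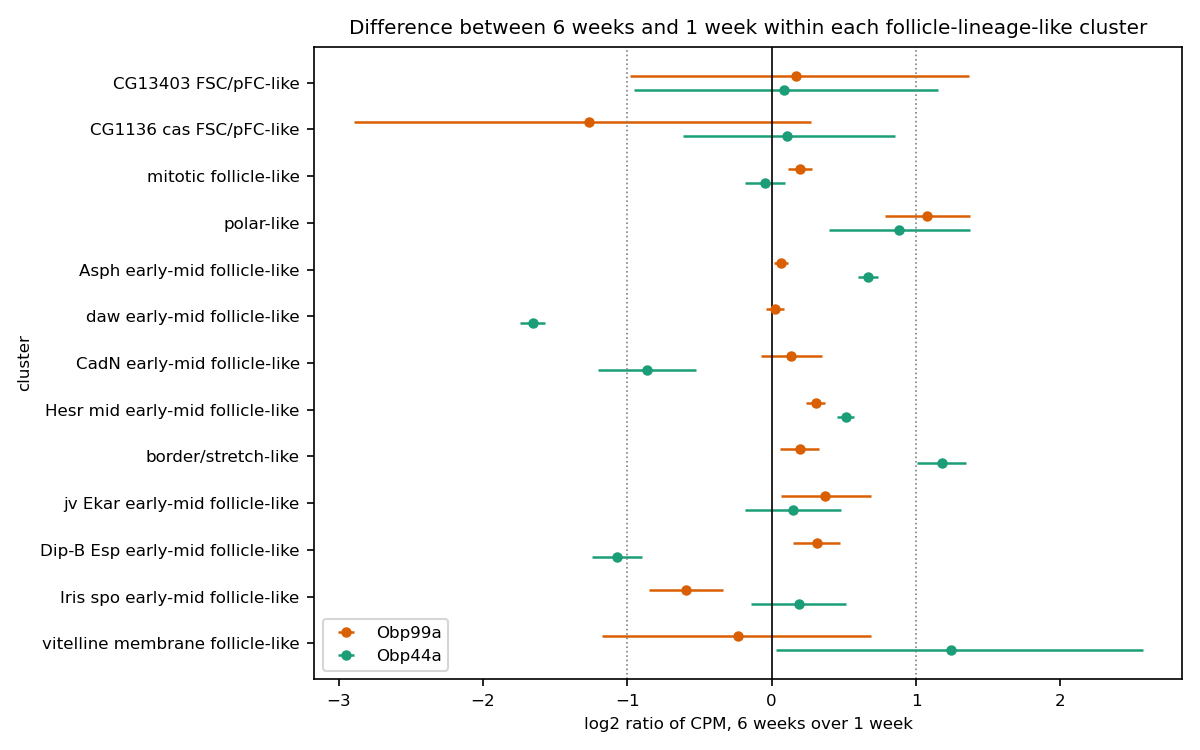
Log2 ratio of CPM, 6 weeks over 1 week, of *Obp99a* (orange) and *Obp44a* (green) within each follicle-lineage-like cluster, with 95% counting intervals as bars and 2-fold differences as dotted lines. *Obp44a* lies at -1.66 in *daw* cells and at 1.18 in border/stretch-like cells, while *Obp99a* lies between 0.021 and 0.31 in *Asph*, *daw*, *CadN*, *Hesr*, mitotic and *Dip-B* cells, the last of which turned to -1.30 with both libraries clustered together.

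Shares of cells with a UMI pointed the same way as the levels in *daw*, *Asph* and border/stretch-like cells. In *Dip-B* cells the raw share was also lower at 6 weeks, with *Obp44a* in 170 of 948 cells against 166 of 848 at 1 week. Only the thinned share of *Dip-B* cells pointed the other way. In *daw* cells, *Obp44a* was read in 36.8% of 532 cells at 6 weeks and 47.7% of 528 cells at 1 week, with 8 and 21 UMIs at the 90th percentile and at most 77 and 243 UMIs in a cell. With every cell thinned to 1000 UMIs, the shares were 11.5% (8.89 to 14.5) at 6 weeks and 22.9% (19.4 to 26.7) at 1 week. In *Asph* cells the thinned shares were 24.4% (21.4 to 27.6) and 17.5% (14.8 to 20.5), and in border/stretch-like cells 11.3% (7.84 to 15.5) and 6.59% (4.27 to 9.65), whose intervals overlap. In *Dip-B* cells they were 3.16% (2.15 to 4.49) and 2.24% (1.35 to 3.48), with intervals that also overlap, and the log2 ratio of thinned cells was -0.12. In germ cell-like cells thinned shares of *Obp99a* were 0 of 82 at 6 weeks and 0 of 110 at 1 week, with exact intervals up to 4.40% and 3.30%. At a finer clustering, *daw* cells split chiefly into a group of 318 and 343 cells with 237 and 737 CPM of *Obp44a*, and a group of 203 and 176 cells with 39.1 and 72.4 CPM. *Obp99a* was at 673 and 536 CPM in the first group and at 191 and 362 CPM in the other.

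In *Dip-B* cells the result leaned on 1 cell, which held 198 of the 674 *Obp44a* UMIs at 1 week. Without the top cell of each library, again an alternative added once values were known, the log2 ratio was -0.72 in *Dip-B* cells (-0.92 to -0.53), -1.64 in *daw* cells, 1.17 in border/stretch-like cells and 0.69 in *Asph* cells. The values in *Dip-B* and border/stretch-like cells turned sign when both libraries were clustered together, to 0.046 and -0.25.

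In polar-like cells, the signaling cells at the ends of each egg chamber marked by *upd1*, *Obp99a* had 145 CPM at 6 weeks and 68.5 CPM at 1 week, in a cluster where 0.644% of genes were at least 2-fold higher at 6 weeks. However, it was read in only 11.5% of 130 cells and 10.9% of 184 cells, and 1 cell held 135 of its 253 UMIs at 6 weeks. That cell also held 83 of the 89 *Obp44a* UMIs of the cluster. Without the top cell of each library the log2 ratio was 0.63 for *Obp99a* (0.23 to 1.03), against 1.08 with it, and for *Obp44a* it was -1.53 (-3.12 to -0.19), against 0.88 with it.

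Clusters outside the follicle lineage held few UMIs of the pair. *Obp44a* had 9.77 CPM at 6 weeks and 47.6 CPM at 1 week in muscle-like cells, where 1.95% of genes were at least 2-fold lower at 6 weeks, and 6.50 and 52.9 CPM in the *vir-1* cluster, where 2.51% were. *Obp99a* had 3.25 and 48.9 CPM in the *vir-1* cluster and 18.9 and 51.9 CPM in escort-like cells led by *scro*, where 1.22% of genes were at least 2-fold lower. In the *vir-1* cluster 1 cell held 90 of the 98 *Obp99a* UMIs and 96 of the 106 *Obp44a* UMIs at 1 week, and without the top cell of each library *Obp99a* was at 3.04 and 4.05 CPM and *Obp44a* at 1.79 and 5.06 CPM. At 1 week the top cell held 19 of the *Obp44a* UMIs of muscle-like cells and 13 of the *Obp99a* UMIs of *scro* cells. Without the top cells these levels were 7.33 and 31.4 CPM in muscle-like cells and 12.5 and 32.8 CPM in *scro* cells. *Obp99a* had 14.5 and 2.64 CPM in the *CG15721* cluster, where 4.5% of genes were at least 2-fold higher. Escort cells are somatic cells that lie along the early germline cysts.

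*Obp18a*, on X at 19135081 to 19135868 on the minus strand, was the one member of at least 200 UMIs with its highest level in muscle-like cells, which carried *Mhc*, *Mlc2*, *Mp20* and *up*. Its level there was 273 CPM at 6 weeks (251 to 297) and 239 CPM at 1 week (211 to 269), with a UMI in 35.7% of 504 cells and 34.5% of 357 cells. The unnamed *CG5070* cluster had 155 and 129 CPM, and hemocyte-like cells, the circulating blood cells of the fly, had 28.2 CPM on 8 UMIs at 6 weeks and 125 CPM on 50 UMIs at 1 week, 32 of which came from 1 cell. In hemocyte-like cells 7.14% of genes were at least 2-fold lower at 6 weeks. In follicle-lineage-like cells as a whole *Obp18a* had 2.83 and 2.65 CPM, and in germ cell-like cells 3.47 and 0.885 CPM. Tubule-like cells had 10.6 and 5.11 CPM, in a cluster where 1.78% of genes were at least 2-fold higher.

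The share of *Obp18a* UMIs from muscle-like and *CG5070* cells was 60.3% at 6 weeks and 48.1% at 1 week. Muscle-like cells were shallow, with medians of 2514.5 and 2321 UMIs, and their thinned shares were 19.2% and 17.1%. Over all cells the gene had 7.82 CPM at 6 weeks and 6.29 CPM at 1 week (log2 ratio 0.31, 0.18 to 0.45). Within muscle-like cells, which were 5.10% of the cells at 6 weeks and 3.91% at 1 week, the interval held 0 (0.20, -0.015 to 0.41), and with the cluster mix held at that of 1 week the value over all cells was 0.091. The genes whose 1-week levels over the clusters were most like those of *Obp18a* were *alpha-Est8* (r = 0.89, and 0.69 with 6-week levels), *CG17032* (0.88 and 0.96), *Tdc1* (0.80 and 0.90), *bt* (0.77 and 0.77) and *CG9338* (0.77 and 0.71). *Tdc1* encodes a tyramine-making enzyme and *bt* a giant muscle protein. *Obp18a* was added to this search after its values had been seen.

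*Obp19d* and *Obp19c* lie next to each other on X, *Obp19c* at 20417921 to 20418964 on the minus strand and *Obp19d* at 20419613 to 20420979 on the plus strand. *Obp19d*, known from the antenna and taste organs, had 125 UMIs at 6 weeks and 129 at 1 week, and the FSC/pFC-like clusters held 79.2% and 76.7% of them. Cells led by *CG13403* had 29.6 CPM at 6 weeks (23.2 to 37.2) and 29.1 CPM at 1 week (22.04 to 37.7), with a UMI in 6.89% of 653 cells and 6.27% of 622 cells. In cells led by *CG1136* and *cas*, a transcription factor gene of the early lineage, the level was 6.98 CPM at 6 weeks and 18.98 CPM at 1 week (log2 ratio -1.44, -2.21 to -0.70), on 26 and 42 UMIs. Over all cells the interval held 0 (-0.36, -0.73 to 0.0054).

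The *CG13403* cells were shallow, with medians of 3056 UMIs at 6 weeks and 2669 at 1 week. They carried *zfh1*, *eya* and *sim*, but *tj*, a gene of somatic cells of the ovary, was read in 11.6% of them at 1 week, against 53.3% of the *CG1136* cells, so that their class name is the less secure of the pair. Their neighbors on X were near the floor, *Obp19b* with 8 UMIs at each age and *Obp19a* with 3 at each age.

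*Obp19c* had 44 UMIs at 6 weeks and 1978 at 1 week (log2 ratio -5.81, -6.27 to -5.38), and 1922 of the 1-week UMIs came from 4 cells with 1110, 527, 228 and 57 UMIs. The clusters placed these cells among polar-like, *jv* and *Iris* cells. The same 4 cells were all of the kept cells with at least 100 UMIs of *yellow-g* and *yellow-g2*, genes of eggshell-making follicle cells, of which they held 96.5% and 98.3% of the 1-week UMIs. They also held 87.7%, 60.5% and 58.1% of the UMIs of the chorion genes *Cp7Fb*, *Cp36* and *Cp38*. No kept cell at 6 weeks had more than 2 UMIs of *yellow-g* and *yellow-g2*. The scatter of *Obp19c* against these genes shows the 4 cells apart from the rest.

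**Figure D4:**
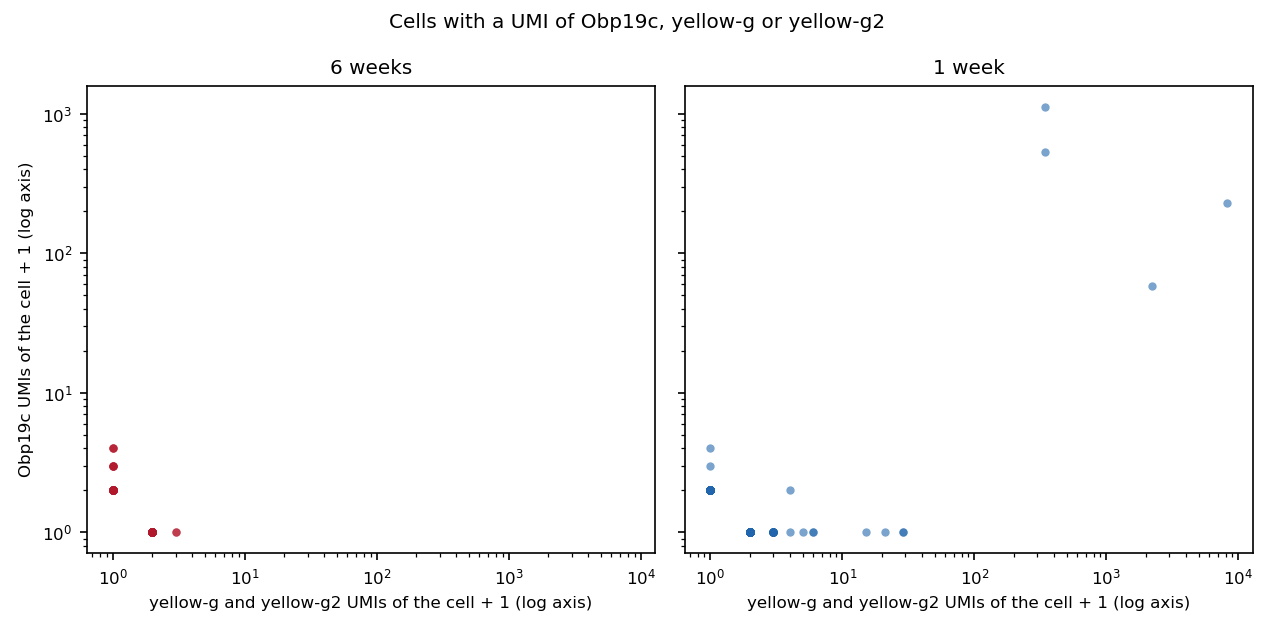
UMIs of *Obp19c* in each cell (+ 1, log axis) against UMIs of *yellow-g* and *yellow-g2* (+ 1, log axis), for cells with a UMI of any of the 3 genes at 6 weeks (left) and 1 week (right). The 4 cells at 1 week with 57 to 1110 UMIs of *Obp19c* are those with at least 100 UMIs of the *yellow* genes, and no such cell is present at 6 weeks.

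Outside these 4 cells *Obp19c* was a gene of the FSC/pFC-like clusters, as was its neighbor *Obp19d*. It had 9.74 CPM at 6 weeks (6.24 to 14.5) and 7.66 CPM at 1 week (4.29 to 12.6) in *CG13403* cells, and 4.03 and 4.97 CPM in *CG1136* cells, where the intervals of the ages overlap. Other follicle clusters had at most 1 UMI at 6 weeks and at most 5 at 1 week. Without the 4 cells, which was also tried only once values were known, the log2 ratio over all cells was -0.66. The 6-week library thus holds no sampled cell of the kind that carried most of the *Obp19c* at 1 week, and a lower number of such cells and a lower level in them cannot be told apart. The 1-week levels of *Obp19c* over clusters are set by the clusters in which the 4 cells were placed, and so is the likeness of other genes to it. The genes most like it over the 1-week clusters were *Fcp3C* (r = 0.87), *CG14431* (0.76), *CG14834* (0.76), *CG34377* (0.74) and *CG13227* (0.74), and with 6-week levels their r was 0.21, 0.034, -0.049, -0.036 and -0.18.

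Hemocyte-like cells, with *Hml*, *He*, *NimC1* and *eater*, carried a further set of members, but numbered only 18 at 6 weeks and 53 at 1 week. *Obp83cd*, on 3R at 6108134 to 6109733 with exons that overlap *Obp83ef* on the other strand, had 30 UMIs at 6 weeks and 56 at 1 week over all cells, of which 21 and 53 were in this cluster. Its level there was 73.9 CPM at 6 weeks (45.8 to 113) and 132 CPM at 1 week (99.0 to 173), and a UMI was read in 38.9% and 35.8% of the cells. At 6 weeks 1 cell held 12 of the 21 UMIs, and without the top cell of each library the levels were 34.0 and 104.5 CPM (log2 ratio -1.62, -2.85 to -0.56). Of the 7 UMIs of *Obp83ef*, 5 at 6 weeks and 1 at 1 week were in the same cluster.

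*Obp99c*, on 3R at 29685736 to 29689311 with exons that overlap *Gycalpha99B* on the other strand, had 53 UMIs at 6 weeks and 186 at 1 week (log2 ratio -2.13, -2.60 to -1.68). Hemocyte-like cells had 21.1 CPM at 6 weeks on 6 UMIs and 219 CPM at 1 week on 88 UMIs, 43 of which came from 1 cell. Cap/escort-like cells led by *Wnt6* had 1 UMI at 6 weeks and 25 at 1 week, and 24 of these 25 came from 1 cell. *Obp99b*, known from the fat body of male heads, had 24 and 136 UMIs in all (log2 ratio -2.82, -3.51 to -2.18). Hemocyte-like cells had none of it at 6 weeks and 107 UMIs at 1 week (267 CPM), 81 of them in 1 cell, without which the 1-week level was 67.0 CPM. A count of 0 in so few cells has an exact upper limit of 12.99 CPM. The cluster led by *CG15721* had 13 *Obp99b* UMIs at each age (2.33 and 6.87 CPM), in 1.52% of 658 cells at 6 weeks and 1.71% of 293 cells at 1 week.

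The remaining members of at least 30 UMIs had few of them. *Obp56d* had 1 UMI at 6 weeks and 204 at 1 week (log2 ratio -7.99, -13.30 to -5.49), of which 183 came from 1 cell of the *CG5070* cluster. *Obp56a*, a neighbor of *Obp56d* on 2R, had 24 and 37 UMIs, nearly all in gut-like and tubule-like cells, at 3.20 and 3.70 CPM in *Sox21a* gut-like cells and 6.06 and 3.91 CPM in tubule-like cells. *Obp49a*, a gene of taste sensilla, had 9 and 23 UMIs, with 10 of the 23 in enteroendocrine-like cells, 8 of them in 1 cell. Its 9 UMIs at 6 weeks lay in 9 cells, none of them enteroendocrine-like. *Obp83b*, an antennal member, had 19 and 16 UMIs, all in follicle-lineage-like cells, spread over several clusters with at most 2 in a cell.

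Among the 28 members of 1 to 29 UMIs, *Obp57a* had 23 UMIs at 6 weeks, 22 of them in 2 cells of the *vir-1* cluster, and 1 at 1 week. *Obp57b*, which lies beside it on 2R, had 13 and 2 UMIs, with 11 at 6 weeks in 4 cells of that cluster. *Obp8a*, known as a seminal fluid protein, had 7 and 16 UMIs, of which 5 and 16 were in the *CG5070* cluster, and *Obp83g* had 15 and 3 UMIs, of which 12 at 6 weeks were in 1 cell of that cluster. The others had at most 18 UMIs over both libraries. *Obp56g* and *Obp46a* were among the 11 members with no UMI in the kept cells.

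Of the 12 members of at least 30 UMIs, none was at least 2-fold higher over all cells at 6 weeks and 6 were at least 2-fold lower, *Obp19c*, *Obp49a*, *Obp56d*, *Obp83cd*, *Obp99b* and *Obp99c*. Over all 10056 genes of at least 30 UMIs, 1.98% were at least 2-fold higher and 6.11% at least 2-fold lower. The median log2 ratio was -1.08 over the 12 members and -0.01 over all genes. At 1 week, 10 cells held 98.5% of the UMIs of *Obp56d*, 97.6% of *Obp19c*, 91.9% of *Obp99b*, 82.6% of *Obp49a*, 78.6% of *Obp83cd* and 58.6% of *Obp99c*, so that these ratios rest on few cells. Hemocyte-like cells, highest at 1 week for *Obp83cd*, *Obp99b* and *Obp99c*, were 0.18% of cells at 6 weeks and 0.58% at 1 week. Within them *Obp83cd* was at 73.9 and 132 CPM, short of 2-fold with all their cells counted. With the cluster mix of 1 week, the ratios were -1.81 for *Obp99c*, -5.97 for *Obp19c* and -8.34 for *Obp56d*. In follicle-lineage-like cells 7 members had at least 30 UMIs, none of them at least 2-fold higher (1.17% of all genes) and 1, *Obp19c*, at least 2-fold lower (2.54% of all genes).

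**Figure D5:**
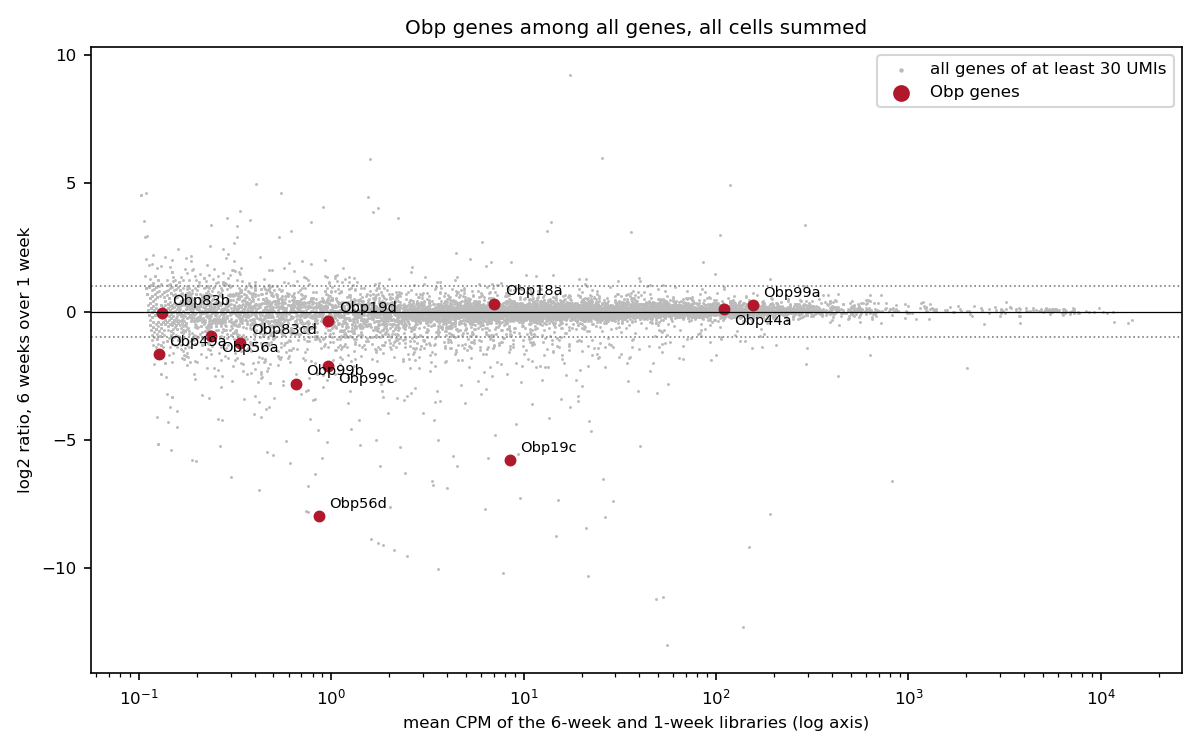
Log2 ratio of all cells summed, 6 weeks over 1 week, against the mean CPM of the libraries (log axis), for genes of at least 30 UMIs with UMIs in both libraries (gray) and the 12 Obp genes of that size (red), with 2-fold differences as dotted lines. *Obp99a* (0.24) and *Obp44a* (0.12), the most abundant members, lie near 0, and *Obp56d* (-7.99) and *Obp19c* (-5.81) lie lowest.

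Other genes of odor and taste were sparse. Of 187 such genes, the odorant (Or), gustatory (Gr) and ionotropic (Ir) receptor genes and 12 named genes, 131 had at least 1 UMI and 34 at least 30 UMIs. *Or47a*, an odorant receptor gene, was the one of these 34 at least 2-fold higher over all cells at 6 weeks, beside 1.98% of all genes. It had 80 UMIs at 6 weeks and 0 at 1 week. Its highest level was 74.2 CPM in the *CG5070* cluster at 6 weeks, a cluster of only 26 cells at that age. At least 2-fold lower were 2, *Gr98a* (log2 ratio -1.15) and *Snmp2* (-1.10), beside 6.11% of all genes. *Gr98a* was highest in tubule-like cells, where its level was similar, at 28.3 CPM at 6 weeks and 30.1 CPM at 1 week. This cluster held 119 cells at 6 weeks and 182 at 1 week. How far the cluster mix sets the *Gr98a* ratio was not tested. *Orco*, the co-receptor that most odorant receptors need, had 2 UMIs at 6 weeks and 0 at 1 week. *lush*, the odorant binding protein of pheromone sensing, had 16 and 13 UMIs and, as *Obp83cd*, its highest level in hemocyte-like cells, at 28.2 and 22.4 CPM. *Phk-3*, *EbpIII* and *Snmp2* were highest in the *CG5070* cluster, in which *Obp18a* and *Obp56d* were also found, with 2784, 1111 and 271 CPM at 6 weeks and 9217, 3325 and 680 CPM at 1 week. The *CG5070* cluster held 26 cells at 6 weeks and 53 at 1 week. Their median depths were 23715.5 and 8988 UMIs, and their median mitochondrial shares 4.81% and 10.2%. *Phk-3* and *EbpIII* encode small secreted chemosensory-type proteins of another family.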

How the data were processed

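Single-cell RNA was measured in ovaries of 6-week-old and 1-week-old *w1118(x);;* females, with 1 library for each age. The authors aligned reads with Cell Ranger 9.0.0 to the BDGP6 genome and deposited UMI counts per gene and barcode as whole numbers, before their own filter on cells. The labels name no replicates and give the same kit for both libraries, whereas the methods of the study name more than 1 kit version and its legends mention replicates.

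A barcode was kept with 500 or more genes, 1000 or more UMIs and up to 20% mitochondrial UMIs. The 1-week cells were clustered by the Leiden method (leidenalg 0.10.2) at resolution 1 on 2000 variable genes, without mitochondrial and Obp genes, reduced to 30 principal components and joined to 20 nearest neighbors. Each 6-week cell took the commonest cluster of its 30 nearest 1-week cells. A class was named when at least 3 of its markers were raised 2-fold in at least 10% of the cells of a cluster. This rule was not applied to 2 clusters that met it and were left unnamed. They were the *vir-1* cluster, with mature follicle cell markers, and the *CG5070* cluster, with trachea markers. Clusters with fewer than 10 genes raised 8-fold and 3 early-mid markers in 25% of cells were named early-mid follicle-like. These limits were fixed once the clusters were known. Doublets were left in, and Scrublet (scanpy 1.11.5) marked 110 cells at 6 weeks (1.11%) and 75 at 1 week (0.821%), which an alternative left out. The rates expected from the numbers of barcodes were 8.09% and 13.3%, so that alternative may leave many doublets in.

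UMIs were summed over cells and given as CPM with exact Poisson intervals, shares have exact Clopper-Pearson intervals, and log2 ratios exact binomial intervals given the totals, all at 95%. The summed depth was 147732187 UMIs at 6 weeks and 118721990 at 1 week. Genes of at least 200 UMIs are given in full, those of at least 30 are named, and others are given by counts, except single genes picked after their values were seen (*Obp57a*, *Obp57b*, *Obp8a*, *Obp83g*, *Obp83ef*, *Obp19a*, *Obp19b*, *Obp46a*, *Obp56g*). Likeness of clusters is Pearson's r of log2(CPM + 10). All 51 identifiers were matched to release 6.54 of BDGP (Ensembl 115). The intervals were tried on simulated counts drawn from the Poisson model that they assume. That trial leaves out the clumping of UMIs in single cells, so it cannot show how well the intervals cover these data. The members and lists were chosen with earlier results of these data known.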

Additional observations from a re-analysis of the deposited data

Results flagged for a closer look

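Several members differed by at least 2-fold in opposite directions between clusters, each with a counting interval that leaves out 0, and none of these differences between clusters was tested. *Obp44a* had log2 ratios, 6 weeks over 1 week, of 1.18 in border/stretch-like cells, -1.07 in *Dip-B* cells, -1.66 in *daw* cells, -2.28 in muscle-like cells and -3.02 in the unnamed *vir-1* cluster. *Obp99a* had 2.46 in the unnamed *CG15721* cluster and 1.08 in polar-like cells, and -1.46 in escort-like cells led by *scro* and -3.91 in the *vir-1* cluster.

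In the *vir-1* cluster 1 cell at 1 week held 90 of the 98 *Obp99a* UMIs and 96 of the 106 *Obp44a* UMIs. Without the top cell of each library its log2 ratios were -0.41 (-1.91 to 1.13) and -1.50 (-3.25 to 0.10). The *CG15721* value of *Obp99a* rests on 81 UMIs at 6 weeks, 30 of them in 1 cell, and 5 at 1 week. It was 2.53 (0.90 to 4.85), on 51 and 3 UMIs, with the top cell of each library left out. Without the top cell of each library, *Obp44a* in muscle-like cells was at -2.10 (-3.07 to -1.19) on 15 and 36 UMIs. *Obp99a* in *scro* cells was then at -1.39 (-2.59 to -0.27) on 11 and 21 UMIs.

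*Obp18a* had 1.05 in tubule-like cells, on 21 and 17 UMIs, and -2.15 in hemocyte-like cells. Without the top cell of each library the intervals of both held 0 (1.02, -0.05 to 2.11, and -0.93, -2.55 to 0.46).

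Barcodes that failed the filter hold Obp signal that the comparisons do not use. *Obp18a* was at 35.9 CPM in them at 6 weeks and 28.7 CPM at 1 week, against 7.82 and 6.29 CPM in the kept cells, and *Obp99c* at 2.43 and 4.74 CPM, against 0.359 and 1.57 CPM. *Obp99a* was lower in them than in the kept cells, at 80.2 and 37.8 CPM. What these barcodes hold was not tested.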

How the results depend on the processing

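No paired analysis was possible because each age has 1 library. The log2 ratio of all Obp UMIs was 0.076 over all cells and 0.068 in follicle-lineage-like cells. Over all cells it was 0.042 with a mitochondrial share up to 10%, 0.13 with no such limit, 0.046 on a scale without mitochondrial, yolk and eggshell genes, 0.10 with cells thinned to 1000 UMIs, 0.21 over every barcode and 0.17 without the 10 cells of each library with most Obp UMIs. Among alternatives added once values were known, it was 0.16 without the 4 *yellow-g* cells and -0.016, the one change of sign, with the cluster mix of 1 week. In follicle-lineage-like cells it was 0.037, 0.12, 0.039, 0.12 and 0.14 under the first 4 of these settings and without the 10 cells, 0.12 as a mean of the CPM of each cell, 0.094 with both libraries clustered together, 0.16 without the *yellow-g* cells and 0.038 with the *CG15721* cluster.

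The 6 genes at least 2-fold lower became 3 with a mitochondrial share up to 10%, 1 with thinned cells, 3 at 200 UMIs or more and 20 at 1 UMI or more, where 8 were higher. Follicle-lineage-like cells held 96.7% of Obp UMIs at 6 weeks at Leiden resolution 2, 95.7% and at 1 week 93.02% with both libraries clustered together, 97.4% at 6 weeks with the *CG15721* cluster, and 96.6% and 94.8% without the *CG13403* cluster. At resolution 0.5 the cells highest for *Obp99a* and *Obp44a* were of the mitotic follicle-like class, and with both libraries clustered together *Obp44a* was highest in the border/stretch-like class. *Obp44a* turned to 0.046 in *Dip-B* cells and -0.25 in border/stretch-like cells with both libraries clustered together. In *daw* cells it stayed between -1.69 and -1.41 in all 12 settings. *Obp19d* over all cells was 0.25 with a mitochondrial share up to 10%. Of 23 values for single genes, 13 kept their direction throughout, and the cause of the changes was not tested.

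Genes of a few UMIs and clusters of 18 to 53 cells are limited by depth. The intervals leave out variation between flies and dissections.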
